A study of Mus musculus with 98 samples.

Results

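Nanog is 1 of the 21813 gene symbols in the count tables of this study of TBLC, a mouse stem cell culture, and its row was followed through every table: its level in each state and under each knockdown, its course after transcription was blocked, and its recovery with 2 RNA-binding proteins. No other symbol in the tables starts with Nanog. Whether its pseudogenes have a row under another name was not checked. The 98 samples fall into 49 groups of 2 replicates, of which 86 libraries in 9 tables hold gene counts. TBLC were kept in 2MYCP medium. The cells labelled diffTBLC were TBLC moved to a medium called SLM for 3 days, and these were sorted into CD140- cells (EPI-T) and CD140+ cells (PrE-T). The cells labelled TBLC_PlaB- were held in SLM for 8 hours and are paired with TBLC_Ctrl. A set of diffTBLC received siRNA to Mettl3 or Virma, or the control siNC, with no further treatment. Actinomycin D, which blocks transcription, was given to 4 pairs of arms read at 0, 1, 2 and 3 h: TBLC and diffTBLC, TBLC_Ctrl and TBLC_PlaB-, diffTBLC with siNC1 or siVirma, and diffTBLC with siNC2 or siIgf2bp3. RNA immunoprecipitation (RIP) with antibodies to IGF2BP3 or YTHDF2 was done in diffTBLC, each with its input. The labels do not say whether the 2 replicates of a group are separate cultures, so p-values measure the spread between these libraries, which may be technical. Chi-squared per degree of freedom between replicates, which is 1 for counting noise alone, ran from 1.10 in TBLC at 3 h to 10.1 in PrE-T. It was 1.12 in TBLC and 1.24 in diffTBLC at 0 h. Where it is near 1, p-values measure little beyond counting noise.

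Nanog is a homeodomain transcription factor that holds mouse pluripotent cells in the naive, self-renewing state. In the inner cell mass it marks the cells that become epiblast, while cells that switch on Gata6 under FGF signalling lose Nanog and become primitive endoderm (PrE). Its mRNA is also a known carrier of N6-methyladenosine (m6A), a base mark placed by a complex that holds METTL3, the catalytic subunit, and VIRMA, a scaffold subunit. YTHDF2 is a reader of the mark known for speeding mRNA decay, and IGF2BP3 is a reader known for slowing it. The m6A libraries and peaks were not analysed here.

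Nanog transcription is known to depend on OCT4 (from Pou5f1) and SOX2, which bind side by side just before its start. The DNA they bind is shown because both genes are followed beside Nanog below. It lies at chr6:122707364-122707477 on the plus strand of GRCm38.p6 (RefSeq), upstream of the transcription start, with the capitals marking the joined octamer and Sox motif, 75 to 62 bases before the start.
Nanog promoter: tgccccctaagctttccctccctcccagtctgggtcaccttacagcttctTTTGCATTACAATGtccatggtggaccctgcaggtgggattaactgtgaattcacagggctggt
Windows from 250 bases before to 50 bases after each start were searched on both strands. The octamer part, TTTGCAT, was found in 5.24% of 27025 genes and the Sox part, ACAATG, in 14.3%. The joined motif, TTTGCATNACAATG, which contains both, was found in 1 gene, Nanog. These are the letters of the Nanog element itself with 1 base left free, so Nanog had to match. Variants of the motif and sites outside these windows were not searched, so the count does not make it particular to Nanog. Of 15 genes that act with or upstream of Nanog in pluripotent cells (called the network list below), 11 had a window. TTTGCAT was found in those of Sox2 and Zfp42, ACAATG in those of Pou5f1 and Esrrb, and the joined motif in 0. A match of letters is a description and not a measured binding site.

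Library totals ran from 2483808 to 29471283 counts, lowest in the Ythdf2 RIP and highest in the sorted cells. Levels are given in CPM (counts scaled to a common library total), adjusted within each table by TMM, which sets the bulk of genes equal between libraries. Some libraries stood apart from their labels. The share of counts from ribosomal protein genes was highest at 3 h in 6 of 8 actinomycin D arms, but in siNC1 and siNC2 it was highest at 0 h and lowest at 1 h. It was also lowest at 1 h in diffTBLC, by a small step (10.3%, against 10.5% at 0 h). The mitochondrial share was highest at 1 h in siNC1 and siNC2 and at 0 h in the other 6 arms. Whether the hours of these arms are labelled as sampled was not tested, and their slopes rest on those labels. Igf2bp3 was higher in the library pair labelled siIgf2bp3 at 0 h than in siNC2 (27.0 against 18.3 CPM), and lower over 1 to 3 h (log2 difference -0.58 ± 0.041 SE, adjusted p = 1.495e-13). Virma was lower in siVirma than siNC1 over 1 to 3 h, by -1.04 ± 0.035 (adjusted p = 1.883e-22). In the untreated siRNA table Virma was lower in siVirma (log2 difference -0.50 ± 0.085, adjusted p = 1.885e-06), and Mettl3 in siMettl3 was -0.18 ± 0.15 (adjusted p = 0.771). The Nanog slopes in the courses of siNC1 and siNC2, and their differences, are therefore given with and without the 0 h libraries. Leaving out 0 h does not restore the order of the hours. From 2 to 3 h the ribosomal protein share fell from 13.9 to 12.1% in siNC1 and from 12.3 to 9.89% in siNC2. It rose between these hours in the other 6 arms. Values over 1 to 3 h in these 2 courses thus rest on the hour labels too.

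In the table of sorted cells Nanog was high in EPI-T, intermediate in the TBLC of that table and low in PrE-T. It stood at 205 and 184 CPM in the EPI-T libraries, at 110.3 and 106 CPM in TBLC, and at 14.8 CPM in each PrE-T library. The 3 groups did not overlap, and the spread within a group was small beside the steps between them (SD 14.7, 3.27 and 0.035 CPM, n = 2 each). The step from EPI-T to PrE-T was 13.1-fold. The step from TBLC up to EPI-T was a log2 difference of 0.85 ± 0.068 (SE, adjusted p = 7.46e-09), and that from TBLC down to PrE-T was -2.86 ± 0.080 (adjusted p = 8.998e-15). In the contrast of PrE-T against EPI-T 32.8% of the 14373 genes tested passed the threshold (adjusted p under 0.05) as lower, and 2.15% of genes had a difference below that of Nanog. Against TBLC, 33.8% of genes were lower and 33.5% higher in PrE-T, and 30.1% were higher and 34.8% lower in EPI-T. Untreated TBLC of other, separately scaled tables averaged 247 CPM (TBLC2), 316 CPM (TBLC_Ctrl at 0 h) and 479 CPM (TBLC at 0 h). These lie above the EPI-T mean of 195 CPM, so the step from TBLC up to EPI-T is stated for this table only. That gap between tables was not tested. In bulk samples fewer cells with a gene and less RNA per cell cannot be told apart.

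**Figure D1:**
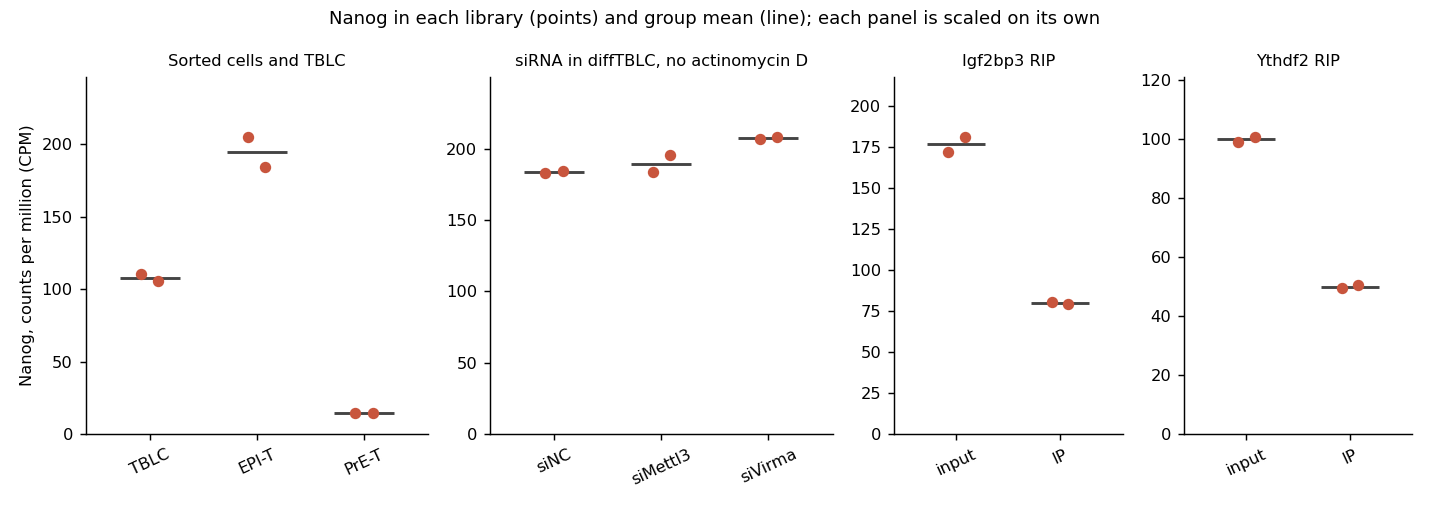
Nanog in CPM (vertical axis, linear from 0) in each library (points) with the mean of the 2 libraries (line), for sorted cells and TBLC, siRNA in diffTBLC, and the 2 RIPs. Each panel is scaled on its own, so heights compare within a panel only; PrE-T sits at 14.8 against 195 in EPI-T, and both IP groups sit below their inputs.

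The network list moved with Nanog in part. Between PrE-T and EPI-T 10 of its 15 genes fell and 4 rose (median log2 difference -2.41, against 0.03 over all genes; 32.8% of all genes lower and 35.8% higher). Nr5a2, a nuclear receptor that binds the Pou5f1 promoter, differed by -4.59 ± 0.11. Tet1, a DNA demethylase that works with NANOG, differed by -2.93 ± 0.052, and Esrrb, a nuclear receptor and a direct NANOG target, by -2.76 ± 0.058. Tbx3, a T-box factor that is also made in extraembryonic endoderm, went the other way, by 3.03 ± 0.065. Of 4 genes known to restrain Nanog transcription, 2 were higher in PrE-T and 2 lower: Tcf7l1 (0.99 ± 0.11) and Mbd3 (0.66 ± 0.060) rose, while Zfp281 (-1.35 ± 0.080) and Trp53 (-0.71 ± 0.071) fell.

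The FGF and ERK list, 11 genes of the signal that lowers Nanog with its feedback genes, had 7 lower and 2 higher members in PrE-T than EPI-T (median -1.41). Over all genes 32.8% were lower and 35.8% higher. Fgf4, the ligand made by epiblast cells, differed by -3.72 ± 0.098, the same size as Nanog to 2 decimals. The feedback inhibitor Spred1 (-2.45 ± 0.069) and the response gene Etv5 (-1.90 ± 0.060) fell, and Dusp4, a phosphatase of ERK, rose by 2.78 ± 0.086. All 10 genes of the PrE list rose, with a median of 6.68, among them the endoderm factor Gata4 (7.50 ± 0.084). The list includes Pdgfra, which encodes a CD140 receptor, the protein these cells were sorted on. Its own direction in EPI-T and PrE-T was thus set by the sort, here and in the counts and sums below.

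Between EPI-T and TBLC, where Nanog rose, 8 of the 15 network genes rose and 4 fell (median 0.40, against -0.07 over all genes). Over all genes 30.1% rose and 34.8% fell in this contrast. Tet1 (1.25 ± 0.049) and Nr5a2 (1.00 ± 0.082) rose with Nanog, while Tbx3 (-2.46 ± 0.065) and Tfcp2l1, a naive-state factor (-0.89 ± 0.055), fell. The FGF and ERK list had 8 higher and 3 lower members. Its feedback inhibitors Spry4 (2.81 ± 0.061) and Spred1 (1.12 ± 0.064) and the response gene Etv4 (1.47 ± 0.068) rose, and Dusp4 fell (-2.74 ± 0.086). Nanog and these response genes were thus both higher in EPI-T than in the TBLC of this table. All 10 PrE genes were lower in EPI-T. In PrE-T against TBLC 9 network genes fell and 3 rose (median -1.67), where 33.8% of all genes fell and 33.5% rose. Tfcp2l1 (-3.30 ± 0.062), Sox2 (-2.96 ± 0.087), Esrrb (-2.56 ± 0.058) and Nr5a2 (-3.59 ± 0.11) were among the network genes that fell.

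Markers of other cells moved between these groups too. The summed level of 12 fibroblast and feeder markers was 54.8 to 55.5 CPM in EPI-T, with Lum at 0, 1131 to 1173 in TBLC and 206 to 210 in PrE-T. The PrE list summed to 185 to 186 CPM in EPI-T, 1366 to 1406 in TBLC and 14430 to 14452 in PrE-T. The 7 trophectoderm markers summed to 38.1 to 49.0, 142 to 149 and 532 to 579 CPM, with Elf5 at 0. The 7 two-cell-like markers summed to 248 to 254 CPM in EPI-T, 114 to 117 in TBLC and 8.09 to 9.55 in PrE-T, the same order as Nanog. Their part in the Nanog differences was not tested.

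Nanog shares its stretch of chromosome 6 with other germline and pluripotency genes. The 3 nearest protein-coding genes on one side are Apobec1, Gdf3 and Dppa3, and on the other Slc2a3, Foxj2 and C3ar1. Between PrE-T and EPI-T the 3 on the first side all fell with Nanog: Gdf3, a ligand of the Nodal group, by -2.01 ± 0.17, Dppa3, a maternal-effect gene, by -3.39 ± 0.34, and Apobec1, a cytidine deaminase, by -2.30 ± 0.26. On the other side Slc2a3, a glucose transporter, rose by 1.11 ± 0.045, Foxj2 rose by 0.55 ± 0.13, and C3ar1 did not pass the test. Over all genes 32.8% were lower and 35.8% higher in this contrast. In PrE-T against TBLC 1 of the 6 neighbours was higher and 4 lower (33.5 and 33.8% of all genes). In EPI-T against TBLC, where Nanog rose, 2 were higher and 2 lower (30.1 and 34.8%). In diffTBLC against TBLC at 0 h, where Nanog fell, 3 were higher and 2 lower (42.8 and 39.7%).

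Before actinomycin D, Nanog was lower in diffTBLC than in TBLC. At 0 h it stood at 480.2 and 478 CPM in TBLC and at 205 and 214 CPM in diffTBLC, a log2 difference of -1.19 ± 0.026 (adjusted p = 9.939e-58), with no overlap. In this contrast 39.7% of all 14463 genes were lower and 42.8% higher. The network list had 12 lower and 2 higher members of 15 (median -0.77). Tfcp2l1 (-2.68 ± 0.027), the Kruppel-like factor Klf4 (-1.40 ± 0.032), Esrrb (-1.20 ± 0.025) and Tet1 (-1.02 ± 0.025) fell. The FGF and ERK list had 7 higher and 3 lower members, with Spry4 (3.64 ± 0.043), Etv4 (2.60 ± 0.038) and the ERK phosphatase Dusp6 (1.25 ± 0.040) up and Etv5 down (-0.74 ± 0.026). With libraries scaled on ribosomal protein genes that list had 5 higher and 6 lower members, and the Nanog difference was -1.82. The shares of all genes on that scale are not given. The PrE list summed to 324 to 328 CPM in TBLC and 3208 to 3216 in diffTBLC, and the fibroblast and feeder markers to 416 to 426 and 197 to 202. How far this mixture of cells sets the Nanog difference was not tested.

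Under actinomycin D the distance between the 2 states shrank, as Nanog fell in TBLC and, on the TMM scale, ended near its 0 h level in diffTBLC. In TBLC it went from 479 CPM at 0 h to 425 and 409.6 CPM at 1 h, 365 and 354 at 2 h, and 270.1 and 278 at 3 h, every library below those of the hour before. This left 87.0% ± 2.21, 75.1% ± 1.70 and 57.2% ± 1.18 of the 0 h level (SD, n = 2). In diffTBLC it was 184 and 198 CPM at 1 h, 223 and 219.9 at 2 h, and 215 and 218 at 3 h. This was 91.3% ± 4.69, 105.6% ± 0.89 and 103.4% ± 1.22 of its 0 h level, a dip at 1 h followed by a return. On plain library totals the Nanog means at 0 to 3 h were 575, 471, 368 and 259 CPM in TBLC and 217, 190.2, 202 and 175 CPM in diffTBLC, so there it ended lower in both. The diffTBLC minus TBLC difference went from -1.19 at 0 h to -1.13 ± 0.027 at 1 h, -0.70 ± 0.027 at 2 h and -0.34 ± 0.029 at 3 h (adjusted p = 2.361e-18 at 3 h), so TBLC stayed higher at every hour. Of all genes 41.1, 42.0 and 40.7% were lower in diffTBLC at 1, 2 and 3 h. Over 1 to 3 h the difference was 0.47 ± 0.031 above that at 0 h (adjusted p = 1.442e-22), a rise past the threshold in 5.46% of all genes.

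**Figure D2:**
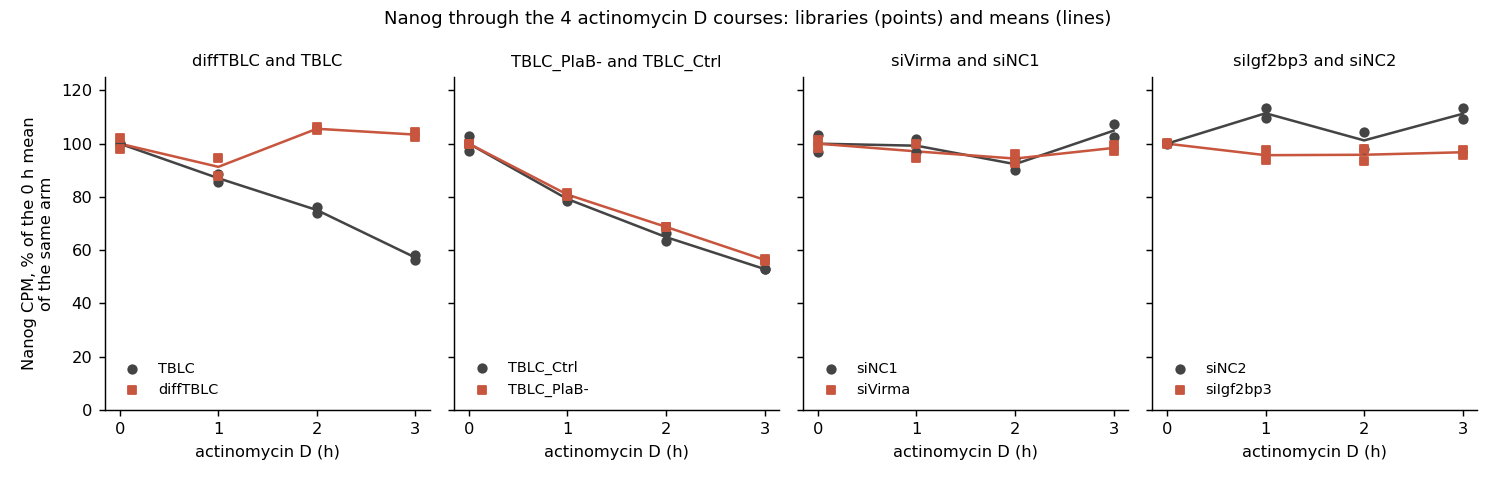
Nanog CPM as a percentage of the 0 h mean of the same arm (vertical axis) against hours of actinomycin D, with a point for each library and a line through the means. TBLC, TBLC_Ctrl and TBLC_PlaB- end at 57.2, 52.9 and 56.3%, while the 5 diffTBLC arms end between 96.8 and 111.2%.

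Fitted as a straight line over the 4 hours, the Nanog slope was -0.26 ± 0.023 log2 units per hour in TBLC (adjusted p = 4.105e-09) and 0.035 ± 0.023 in diffTBLC (adjusted p = 0.202, 95% interval -0.010 to 0.080). A slope of 0 means that a transcript kept pace with the bulk of genes, to which TMM scales. No spike-in is described, so a slope gives no absolute half-life. The difference between the slopes was 0.30 ± 0.032 (adjusted p = 2.248e-05, 95% interval 0.234 to 0.361). In this contrast 2.56% of all genes had a higher slope in diffTBLC past the threshold and 5.66% a lower one, and 97.3% of genes had a slope difference below that of Nanog. Across 25 other settings the difference kept its direction and call. The slope in diffTBLC alone turned with the scaling: it was -0.085 with library totals and -0.27 when libraries were scaled on ribosomal protein genes, both past the threshold, where the slope in TBLC was -0.57 with the latter. With RLE scaling it was 0.060, also past the threshold.

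Most of the network list fell in both states. In TBLC 12 of its 15 genes had a falling slope and 3 a rising one (median -0.48; 28.1% of all genes falling and 37.2% rising), and in diffTBLC 12 fell and 2 rose (median -0.28; 28.6% of all genes falling and 30.8% rising). Sox2 fell in both, at -0.89 ± 0.030 in TBLC and -1.01 ± 0.031 in diffTBLC. Pou5f1 rose in both, at 0.29 ± 0.025 and 0.28 ± 0.024, but had -0.016 and -0.028 with ribosomal protein scaling. Esrrb had -0.11 ± 0.018 and -0.12 ± 0.019. The slope differed between the states in 4 of the 15. Over all genes 2.56% had a higher slope in diffTBLC and 5.66% a lower one. Sall4, a zinc finger factor (0.23 ± 0.044), Tbx3 (0.24 ± 0.054) and Klf2 (0.34 ± 0.092) had higher slopes in diffTBLC, and Stat3, the LIF signal factor, a lower one (-0.11 ± 0.032). The call of Klf2 was lost without either TBLC library at 3 h (0.30 and 0.29), and that of Stat3 under most other settings. Sall4, Tbx3 and Klf2 still fell in diffTBLC, at -0.28 ± 0.031, -0.60 ± 0.039 and -0.90 ± 0.064 log2 units per hour. The list's median slope difference was 0.04, against -0.02 over all genes.

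**Figure D3:**
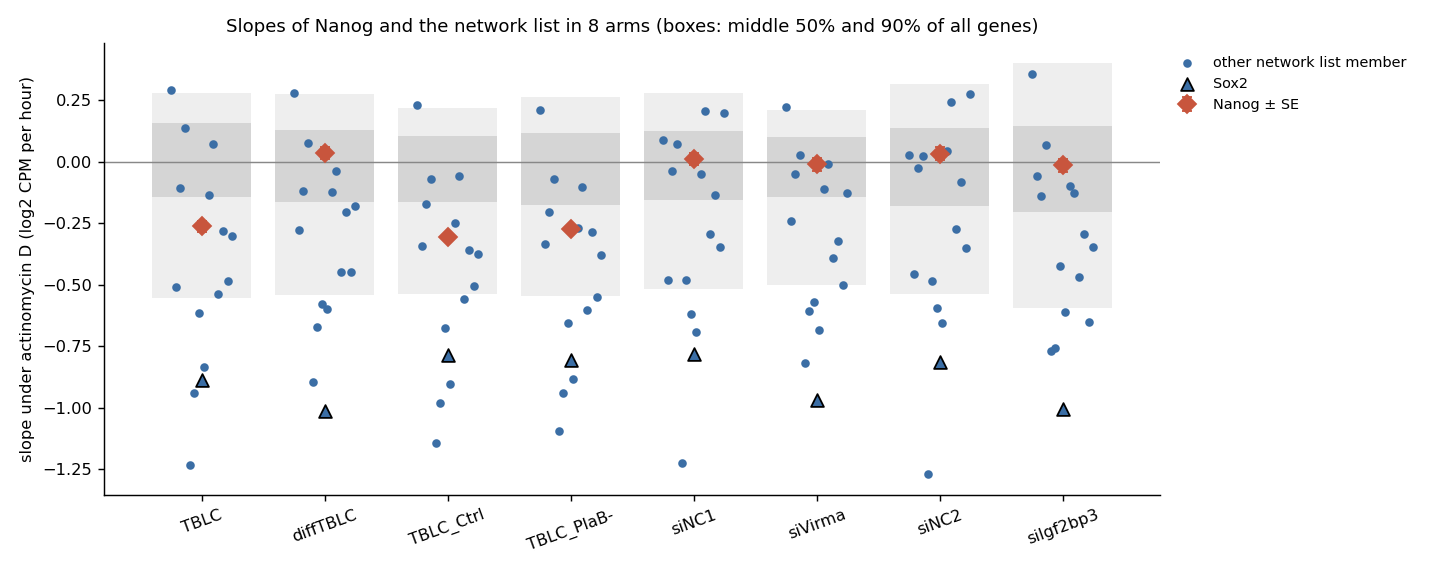
Slope under actinomycin D in log2 CPM per hour (vertical axis) for Nanog with its SE (diamond), Sox2 (triangle) and the other network genes (dots) in 8 arms, over bands that hold the middle 50% and 90% of all genes. Nanog lies between -0.31 and -0.26 in the 3 TBLC-type arms and between -0.014 and 0.035 in the 5 diffTBLC arms, while Sox2 lies at -0.79 or below in the 6 arms other than siNC1 and siNC2.

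After 8 hours in SLM Nanog had not moved detectably. It stood at 307 and 326 CPM in TBLC_Ctrl at 0 h and at 310.7 CPM in each TBLC_PlaB- library, inside the control range (log2 difference -0.028 ± 0.026, adjusted p = 0.807, 95% interval -0.079 to 0.024). Of all genes 1.25% passed the threshold in either direction at 0 h. Over 1 to 3 h the difference was 0.043 ± 0.018 (adjusted p = 0.0713), where 20.7% of all genes passed. That difference passed with ribosomal protein scaling (0.110) and without the first TBLC_Ctrl library at 2 h (0.054).

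Nanog fell at every hour in both arms of this course. TBLC_Ctrl held 253 and 248 CPM at 1 h, 209.7 and 201 at 2 h and 167 in each library at 3 h. TBLC_PlaB- held 249 and 253 CPM, then 213 and 214, then 174 and 176. The arms overlapped at 1 h and stood apart at 2 and 3 h, with TBLC_PlaB- higher by 0.058 ± 0.029 and 0.066 ± 0.034 on the log2 scale (adjusted p = 0.379 and 0.233). The slopes were -0.31 ± 0.013 and -0.27 ± 0.012 (adjusted p = 1.028e-16 and 7.843e-16), and their difference was 0.033 ± 0.018 (adjusted p = 0.473, 95% interval -0.0016 to 0.068), where 0.411% of all genes passed in either direction. This interval lies below that of the slope difference between diffTBLC and TBLC, but the courses are separate tables and that gap was not tested. In each arm 14 of 15 network genes fell and 1 rose (32.7 and 34.2% of all genes falling, 29.1 and 31.0% rising), and 0 of 15 differed in slope between the arms. In levels over 1 to 3 h, 7 network genes were higher in TBLC_PlaB- and 2 lower (12.8 and 7.84% of all genes), among them Klf5 (0.30 ± 0.022) and Esrrb (-0.12 ± 0.015).

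In diffTBLC with no actinomycin D, no Nanog difference with knockdown passed the test. It stood at 183 and 184 CPM with siNC, at 184 and 195 with siMettl3 and at 207 and 208 with siVirma. The siVirma libraries lay above both others, with a log2 difference from siNC of 0.18 ± 0.062 that missed the threshold (adjusted p = 0.0573, 95% interval 0.056 to 0.298). With siMettl3 the difference was 0.045 ± 0.061 (adjusted p = 0.887, 95% interval -0.076 to 0.165), and Mettl3 itself was not detectably lower there. The share of all genes past the threshold was 7.11% for siVirma and 0.865% for siMettl3, in either direction. These libraries held 3968442 to 4750020 counts.

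Around Nanog, siVirma changed 6 of 15 network genes. Tet1 rose by 0.31 ± 0.032, and Tbx3 (-0.67 ± 0.075), Klf5 (-0.26 ± 0.035) and Sall4 (-0.23 ± 0.045) fell, so 2 rose and 4 fell in all (3.48% of all genes higher and 3.63% lower). Of the 5 Nodal pathway genes, 4 rose: Lefty1 (0.79 ± 0.075) and Lefty2 (0.14 ± 0.043), which are inhibitors of Nodal, Nodal itself (0.46 ± 0.13) and its co-receptor Tdgf1 (0.30 ± 0.039). The calls of Nodal and Lefty2 were lost with DESeq2 (adjusted p = 0.156 and 0.186), of Nodal without the first siNC or the second siVirma library (0.33 and 0.43), and of Lefty2 without either siNC or the first siVirma library (0.14, 0.15 and 0.12). The PrE list had 9 lower and 0 higher members of 10 (median -0.89), and its summed level was 5391 to 5525 CPM with siNC and 3332 to 3338 with siVirma. The part of this shift in cell makeup in the Nanog difference was not tested. With siMettl3 Tet1 (0.26 ± 0.032) and Esrrb (0.21 ± 0.054) rose, the other 13 network genes did not pass (0.412% of all genes higher), and 6 of 10 PrE genes fell (median -0.35; 0.453% of all genes lower). The call of Esrrb was lost with DESeq2 and without any 1 of the 4 libraries (0.19 to 0.24).

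In the actinomycin D course Nanog was lower with siVirma than with siNC1 at all 4 hours with TMM scaling. At 0 h it stood at 187 and 176 CPM with siNC1 and at 156 and 161 with siVirma (log2 difference -0.20 ± 0.047, adjusted p = 4.931e-04), without overlap. The difference was -0.23 ± 0.046 at 1 h, -0.16 ± 0.047 at 2 h and -0.29 ± 0.048 at 3 h, each past the threshold. Over 1 to 3 h it was -0.23 ± 0.027 (adjusted p = 6.332e-09), which does not use the libraries labelled 0 h but still rests on the siNC1 hour labels. In this course 27.2% of all genes were lower at 0 h, 28.1, 22.4 and 31.7% at 1, 2 and 3 h, and 36.0% over 1 to 3 h. With ribosomal protein scaling the difference over 1 to 3 h was -0.48. At 0 h the call depended on the scaling: the difference was -0.0042 with library totals and 0.63 with scaling on ribosomal protein genes. The siNC1 libraries at 0 h are those with the high ribosomal protein share.

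With TMM scaling no fall of Nanog over the 3 h was detected in either arm. With siNC1 it was 185 and 176 CPM at 1 h, 164 and 171 at 2 h and 195 and 186 at 3 h. With siVirma it was 158 and 149.6, then 152 and 147, then 158 and 154 CPM. The slopes were 0.011 ± 0.026 and -0.011 ± 0.026, and their difference was -0.022 ± 0.036 (adjusted p = 0.673, 95% interval -0.093 to 0.050), where 8.94% of all genes passed in either direction. That count went to 1 or fewer genes without either library of siNC1 at 0 or 3 h, among others. Without the 0 h libraries the slopes were 0.039 and 0.0092 and their difference was -0.030 ± 0.055. With library totals the slope in siVirma was a fall of -0.092 that passed (adjusted p = 0.0369). With ribosomal protein scaling it was -0.24 (adjusted p = 0.0663), against 0.067 in siNC1, and the difference was -0.30 (adjusted p = 0.124). Of the network list 12 genes were lower and 1 higher with siVirma over 1 to 3 h (median -0.34), where 36.0% of all genes were lower and 35.5% higher. Tbx3 (-1.15 ± 0.042), Nr5a2 (-1.05 ± 0.051) and Zfp42, the naive marker also called Rex1 (-0.51 ± 0.026), were lower and Klf2 (1.10 ± 0.045) higher. Lefty1 was higher by 1.44 ± 0.041, the same direction as in the untreated table. Over 1 to 3 h all 10 PrE genes were lower with siVirma (median -1.39), and their summed level was 2436 to 3179 CPM with siNC1 and 1000 to 1087 with siVirma. The two-cell-like markers summed to 43.7 to 57.2 and 24.8 to 31.3 CPM. Their part in the Nanog difference was not tested.

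With siIgf2bp3 the Nanog level did not differ past the threshold from siNC2 after 0 h. At 0 h it stood at 163 and 162 CPM with siNC2 and at 186 in each siIgf2bp3 library, a log2 difference of 0.20 ± 0.042 (adjusted p = 1.29e-04). The median of all genes was 0.14 in this contrast, which leaves 0.056 relative to it, and 41.2% of all genes were higher. The call was lost with no filter on low counts (0.082) and in a fit of only these libraries (0.069). At 1 h the values were 184 and 178 CPM with siNC2 and 181 and 175 with siIgf2bp3 (-0.022 ± 0.041, adjusted p = 0.680). At 2 h they were 159 and 169 against 182 and 174 CPM, without overlap (0.12 ± 0.042, adjusted p = 0.0503, and 0.0259 with the replicate number as a block). At 3 h they were 184 and 177 against 182 and 178 CPM (-0.0030 ± 0.043, adjusted p = 0.959). Over 1 to 3 h the difference was 0.032 ± 0.024 (adjusted p = 0.251, 95% interval -0.016 to 0.079), where 70.0% of all genes passed in either direction. It was 0.063 and past the threshold with RLE scaling, and -0.10 and -0.68 with library totals and ribosomal protein scaling. Without the second siIgf2bp3 library at 2 h, or either of those at 3 h, it was 0.074, 0.060 and 0.066 and passed. The labels at 0 h are those that Igf2bp3 itself went against. Over 1 to 3 h the PrE list summed to 2694 to 3713 CPM with siNC2 and 2052 to 2244 with siIgf2bp3, and its part in the Nanog values was not tested.

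The Nanog slopes in this course were 0.032 ± 0.026 with siNC2 and -0.014 ± 0.026 with siIgf2bp3. They differed by -0.046 ± 0.037 (adjusted p = 0.298, 95% interval -0.118 to 0.026), close to the median of all genes (-0.038), and 52.4% of all genes passed in either direction. With library totals the difference was -0.17 and with ribosomal protein scaling -0.64, both past the threshold. Without 0 h the slopes were -0.0024 and 0.0093, and the difference was 0.012 and did not pass. The shift from 0 h to the later hours was -0.17 ± 0.048 (adjusted p = 0.00292), while the median over all genes was -0.16 and 43.1% of them fell. With RLE scaling it was -0.061 and did not pass. Over 1 to 3 h 9 network genes were lower with siIgf2bp3 and 5 higher (37.1 and 32.9% of all genes), with Tet1 (-0.67 ± 0.027) and Stat3 (-0.47 ± 0.028) down and Pou5f1 (0.45 ± 0.029) and Klf2 (0.71 ± 0.054) up. With ribosomal protein scaling 14 were lower and 0 higher, and Pou5f1 (-0.26) and Klf2 (-0.0033) changed sign. The shares of all genes on that scale are not given.

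**Figure D4:**
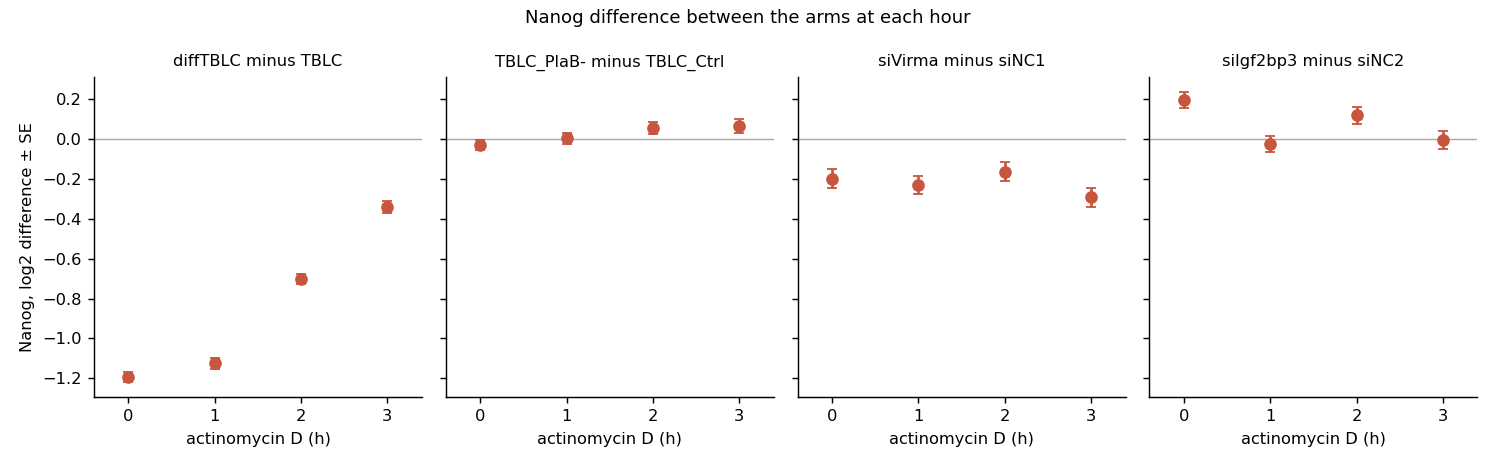
Nanog log2 difference between the 2 arms of each course (vertical axis, ± SE) at each hour of actinomycin D. The diffTBLC minus TBLC difference goes from -1.19 to -0.34, siVirma minus siNC1 stays between -0.29 and -0.16, and the other 2 courses stay between -0.03 and 0.20.

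Set side by side, the 8 arms gave 2 sets of Nanog slopes under TMM scaling. The TBLC-type arms had -0.26, -0.31 and -0.27 log2 units per hour, so that each hour left 83.4, 80.9 and 82.8% of the level of the hour before, relative to the bulk of genes. The diffTBLC arms had 0.035, 0.011, -0.011, 0.032 and -0.014. With library totals the TBLC-type arms had -0.38, -0.38 and -0.36, and the diffTBLC arms had -0.085, -0.031, -0.092, 0.0039 and -0.17. With ribosomal protein scaling the first 3 had -0.57, -0.53 and -0.55, and the diffTBLC arms had -0.27, 0.067, -0.24, 0.15 and -0.49. On that scale siIgf2bp3 lay beside the TBLC-type arms, and 2 separate sets were no longer seen. Both kinds of arm were tested against each other only where they shared a table, in the course of TBLC and diffTBLC. Sox2 had slopes of -0.79 and -0.80 in TBLC_Ctrl and TBLC_PlaB-, and of -0.97 and -1.01 in siVirma and siIgf2bp3, falling steeply in these arms. This does not cover siNC1 and siNC2, which are also diffTBLC arms.

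Nanog mRNA was depleted in both immunoprecipitations. With IGF2BP3 it was 172 and 181 CPM in the inputs and 80.4 and 79.2 CPM in the IP libraries, a log2 difference of -1.15 ± 0.052 (adjusted p = 3.748e-106). With YTHDF2 it was 98.95 and 101 CPM in the inputs and 49.5 and 50.5 in the IP libraries, a difference of -0.999 ± 0.090 (adjusted p = 2.884e-16). Neither pair of groups overlapped. Of all genes 34.8% were lower in the IGF2BP3 IP and 38.8% in the YTHDF2 IP, and Nanog lay at the 8.20th and the 21.8th percentile. These values are relative to the bulk of genes, so a negative value says that Nanog was recovered less than the middle of all genes, not that it was unbound. Ythdf2 mRNA was itself enriched with YTHDF2 (1.92 ± 0.073).

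Most of the network list went the other way from Nanog in these IPs. With IGF2BP3 9 of 15 genes were enriched and 4 depleted (median 0.18, against -0.01 over all genes). Of all genes 35.0% were enriched and 34.8% depleted. Tet1 (1.53 ± 0.013), Sall4 (0.89 ± 0.032) and Klf5 (0.58 ± 0.019) were enriched, and Pou5f1 (-1.06 ± 0.030) was depleted. All 5 Nodal pathway genes were depleted too: Gdf3 (-1.29 ± 0.20), Tdgf1 (-1.10 ± 0.033), Nodal (-0.81 ± 0.10), Lefty1 (-0.54 ± 0.18) and Lefty2 (-0.21 ± 0.053). With library totals 7 network genes were enriched and 6 depleted, and the shares of all genes on that scale are not given. The call of Lefty1 was lost with DESeq2 (-0.53) and without the first input library (-0.40). With YTHDF2 10 network genes were enriched and 3 depleted (median 0.77, against 0.02 over all genes). Of all genes 40.2% were enriched and 38.8% depleted. Tbx3 (1.93 ± 0.073), Sox2 (1.32 ± 0.061) and Tet1 (1.23 ± 0.052) were enriched and Pou5f1 depleted (-1.72 ± 0.045). The FGF and ERK list had 9 enriched members of 11, with Fgf4 at 2.85 ± 0.059 and Spry2 at 2.40 ± 0.084.

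**Figure D5:**
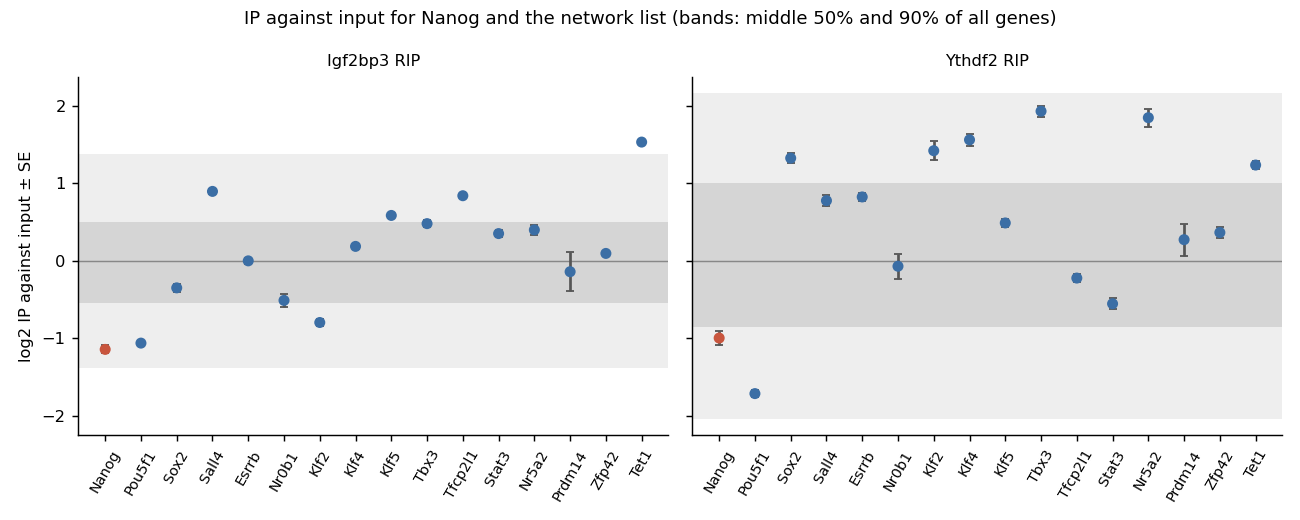
Log2 IP against input with its SE (vertical axis) for Nanog (left, red) and the 15 network genes (blue) in the 2 RIPs, over bands that hold the middle 50% and 90% of all genes. Nanog, at -1.15 and -0.999, and Pou5f1, at -1.06 and -1.72, are the 2 lowest points in both panels.

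The genes whose level most resembled that of Nanog were sought over 38 group means of 6 tables, each table centred on its own mean, among 11923 genes. Epb41l4a had the highest Pearson correlation (r = 0.954), followed by Zfp998 (0.940), Cbx7, a Polycomb protein (0.931), Esrrb (0.929), Trim24 (0.917), Pramel16 (0.910), Ntn1, the guidance ligand netrin (0.909), and Zscan4c, a gene of the two-cell-like state (0.909). The points share tables and libraries. Within the untreated siRNA table the r of Epb41l4a was 0.15, and within the siIgf2bp3 course 0.022. Of the network list Prdm14 (0.885), Nr5a2 (0.864) and Tet1 (0.808) came next after Esrrb, while Sox2 ranked 918th (0.595) and Pou5f1 7603rd (-0.22).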

How the data were processed

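Total RNA libraries were made with 2 stranded kits and read on 2 instruments, per the labels' protocols; which library used which is not given. The authors deposited raw counts per gene symbol, in 9 tables of 21812 symbols. Per the submitters' processing notes reads were handled with STAR 2.7.11b and Subread on build mm39, beside FastQC 0.12.1 and Trim Galore, and DESeq2 is also listed; how reads shared with Nanog pseudogenes were counted is not stated. Columns named TBLC_S were read as TBLC_PlaB-.

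From these counts each table was filtered (filterByExpr), scaled by TMM and fitted with edgeR 4.0.16 quasi-likelihood (R 4.3.3), once on group means and once on a line over the hours in each arm, tests within a table only, with Benjamini-Hochberg adjustment over all genes and a threshold of 0.05. Values are log2 differences ± SE, and intervals are 95%. Alternatives were DESeq2 1.42.0, RLE, library totals, ribosomal protein scaling, no filter, separate fits, a replicate block, and leaving out 0 h or each replicate. In simulated data, slope differences of 0.25 were found in 66% of changed genes for diffTBLC against TBLC and in 17% for siIgf2bp3 against siNC2. In none of 43 groups were the 2 replicates identical, and libraries of different groups were not compared in this way.

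The gene and lists were chosen with earlier results of these data known. Up to 4 members of a list with the lowest adjusted p are named (all may be for lists of up to 5), plus siRNA and antibody targets, 6 neighbours and the 8 genes most like Nanog (log2 CPM plus 0.5). Sox2, Pou5f1 and Esrrb were also named in slopes and likeness, and Lefty1 in the siVirma course, after their values were seen. Promoter windows come from RefSeq (GRCm38.p6).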

Additional observations from a re-analysis of the deposited data

Results flagged for a closer look

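The Nanog difference between 2 groups changed with the hour or the table in 5 values. The diffTBLC minus TBLC difference was 0.47 higher over 1 to 3 h than at 0 h on the log2 scale, and the slope difference was 0.30 per hour, both by a test of the difference itself. The siIgf2bp3 minus siNC2 difference was lower by -0.17 over 1 to 3 h than at 0 h, close to the shift of all genes. Nanog was higher with siVirma by 0.18 in the untreated table and lower by -0.20 at 0 h of the actinomycin D course, with both libraries on their side in each. The first did not pass the test (adjusted p = 0.0573), and the second was -0.0042 with library totals and 0.63 with ribosomal protein scaling. Those tables were normalized separately and the gap between them was not tested.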

How the results depend on the processing

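The main limit is scaling, since no spike-in fixes the total RNA of an actinomycin D arm. Of the alternative values of Nanog in the comparisons, 384 kept their direction and side of the threshold, 20 changed direction, 16 gained a call and 3 lost one. The cause of the changes below was not tested.

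The Nanog slope in diffTBLC was 0.0598 with DESeq2 and with RLE scaling, -0.0849 with library totals, -0.272 with ribosomal protein scaling and 0.0898 without 0 h. TBLC_PlaB- against TBLC_Ctrl gave 0.110 over 1 to 3 h and -0.0125 per hour with ribosomal protein scaling. siVirma against siNC1 at 0 h gave -0.00425 with library totals and 0.626 with ribosomal protein scaling. With library totals the slopes were -0.0308 in siNC1 and -0.0915 in siVirma, where a fall was then called, and in siVirma 0.00573 with no filter and 0.00916 without 0 h. siIgf2bp3 against siNC2 over 1 to 3 h gave 0.0628 with RLE scaling, -0.103 with library totals, -0.00504 with no filter and -0.684 with ribosomal protein scaling. At 0 h it gave 0.0816 with no filter and 0.0695 in a fit of only the libraries compared, at 1 h 0.0751 with DESeq2 and with RLE scaling and 0.0403 with no filter, and at 2 h -0.122 with ribosomal protein scaling. Its slope difference was -0.171 with library totals, -0.636 with ribosomal protein scaling, 0.0117 without 0 h and -0.0668 from 3 h against 0 h. The slope in siIgf2bp3 was 0.00687 with DESeq2, 0.00681 with RLE scaling, -0.167 with library totals, -0.486 with ribosomal protein scaling and 0.00932 without 0 h, and that in siNC2 -0.00239 without 0 h and 0.0513 from 3 h against 0 h. Of other genes, with ribosomal protein scaling Pou5f1 had slopes of -0.0155 in TBLC and -0.0275 in diffTBLC, and differed by -0.265 with siIgf2bp3 over 1 to 3 h, where Klf2 had -0.00328.

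With each replicate left out in turn, Nanog ranged from -0.00145 (without the second siMettl3 library) to 0.0896 for siMettl3 against siNC, from -0.0676 to 0.0164 for TBLC_PlaB- against TBLC_Ctrl at 0 h (0.0164 without the second TBLC_Ctrl library) and from 0.0324 to 0.0539 over 1 to 3 h. It ranged from -0.0127 to 0.0277 for the slope in siNC1, from -0.0219 to 0.00307 for that in siVirma, from -0.0384 to 0.00203 for their difference, and from 0.0157 to 0.0743 for siIgf2bp3 against siNC2 over 1 to 3 h.

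Correlations of same-numbered libraries ran from -0.116 to 0.328 and were over 0.1 in 8 of 28 pairs of groups in the siVirma course and 6 of 28 in the siIgf2bp3 course. The numbers were not taken as pairing the samples, since not every pair was over 0.1 in any table. With the replicate block, siVirma against siNC gave 0.176 (adjusted p = 0.0516) and the slope difference of diffTBLC against TBLC 0.298. The block moved 1 count by over 1.5 times, the genes called in slope between siVirma and siNC1, from 1221 to 406.

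Counts of genes called, which give the background shares, moved by over 1.5 times as follows. The siVirma against siNC count of 863 was 279 with DESeq2 and 495 to 514 without either siNC or the first siVirma library, and the siMettl3 count of 105 was 48 with DESeq2 and 41 to 49 without any 1 library. The diffTBLC against TBLC slope difference count of 1188 was 111 with ribosomal protein scaling, 630 to 779 without the second TBLC library at 0 h or either at 3 h, 4728 without 0 h and 4023 from 3 h against 0 h. The TBLC_PlaB- count of 177 at 0 h was 73 with DESeq2, 274 with ribosomal protein scaling, 94 in a fit of only the libraries compared and 70 to 117 without 1 library, that of 2918 over 1 to 3 h was 1531 with DESeq2 and 5030 with ribosomal protein scaling, and that of 58 in slopes ran from 8 to 3128. The siVirma against siNC1 slope count of 1221 was 3172 with DESeq2, 8019 from 3 h against 0 h, under 10 with library totals, no filter, ribosomal protein scaling or without 0 h, 1 or fewer without either siNC1 library at 0 or 3 h, either siVirma library at 0, 2 or 3 h, or the second siVirma library at 1 h, 239 without the first siVirma library at 1 h, and 4976 and 5126 without a siNC1 library at 1 h. The siIgf2bp3 against siNC2 slope count of 7110 was 11249 with ribosomal protein scaling and under 10 without 0 h.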

Other observations

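Untreated TBLC appear in 4 tables that were scaled separately, so their Nanog levels can be set side by side but not tested. Nanog averaged 108 ± 3.27 CPM in the table of sorted cells, 479 ± 1.26 at 0 h of the TBLC and diffTBLC course, 316 ± 13.1 in TBLC_Ctrl at 0 h, and 247 ± 13.0 in TBLC2, a pair of libraries with no group to compare with (SD, n = 2 each). On plain library totals the order was the same, at 122, 575, 342 and 247 CPM. The PrE list summed to 1366 to 1406, 324 to 328, 353 to 361 and 2290 to 2331 CPM in the same order, and the fibroblast and feeder markers to 1131 to 1173, 416 to 426, 1094 to 1101 and 2028 to 2108. Their part in these levels was not tested. The inputs of the 2 RIPs, both from diffTBLC, also differed in Nanog, with 177 ± 6.61 and 99.9 ± 1.29 CPM. The PrE list summed to 5262 to 5359 CPM in the Igf2bp3 inputs and to 696 to 700.3 in the Ythdf2 inputs, with Foxa2 at 0 in the latter, and its part in the gap was not tested.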
